A study of Homo sapiens with 60 samples.

Results

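Okbyeongpung-san is a traditional formula, known in English as Jade Windscreen powder, made of Astragali Radix, Atractylodis Rhizoma and Saposhnikoviae Radix. Its water extract at the high dose of 500 µg/mL was set against vehicle in HT29 cells, a human colorectal adenocarcinoma line of epithelial origin, after 24 h. The comparison holds 6 of the 60 libraries of the series, namely the 3 libraries labelled high dose and the 3 labelled vehicle, and it covers all genes with enough counts, 17049 in number. The vehicle is given as 0.1% DMSO in the sample characteristics and as 2% DMSO in the design text, and whether the extract-treated cells also received DMSO is not given in the labels used here. Other groups enter where they bear on this comparison. These are the same extract at 20 µg/mL (low) and 100 µg/mL (medium), and the water extracts of the formulas Soyo-san, Guibi-tang and Saengmaek-san and of the single herbs Saposhnikoviae Radix and Menthae Herba, each at the same 3 doses with 3 libraries per dose. HT29 is 1 cell line without immune or stromal cells, and the labels do not say whether libraries of a group came from separate cultures, so p-values measure only the spread between these libraries.

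Intestinal epithelial cells answer bacterial products and cytokines through the transcription factor NF-kB, which is held in the cytosol by inhibitors such as NFKBIA and, once freed, switches on chemokines that draw in neutrophils, secreted antimicrobial proteins, and its own inhibitors. Interferon-stimulated genes form a separate antiviral programme switched on through interferon receptors. NRF2 governs glutathione and thioredoxin synthesis, and EGR1 and FOS are immediate early genes that follow growth factor and MAPK signalling.

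The promoters of the genes that rose were searched, on both strands, for the NF-kB form GGANNTTCC, where N is any base, in the 250 bases before each gene's start in the RefSeq promoter table (GRCh38.p14). The form was present in 6 of the 7 chemokine genes that rose, all but CCL20, and in 3.88% of the 27305 promoters in the table. Among all 13 chemokine genes tested, risen or not, 10 matched a promoter and 8 of these held the form. Of the 138 genes that rose without and with the library-order term described below, 115 matched a promoter and 17.4% of those held the form. Of the 89 genes that fell in both ways, 70 matched and 2.86% held it. A match in this window is a description of the letters and not evidence of binding. The windows of CXCL1 (chr4:73869143-73869392, plus strand), CXCL2 (chr4:74099196-74099445, minus strand), CXCL8 (chr4:73740319-73740568, plus strand) and ICAM1 (chr19:10270870-10271119, plus strand) are shown as examples of risen genes that hold the form. The matching bases are in capitals. These are not the largest rises, since C3 (log2 change 5.53) and CCL20 (log2 change 4.56), which lacks the form, rose more and are not shown.
CXCL1: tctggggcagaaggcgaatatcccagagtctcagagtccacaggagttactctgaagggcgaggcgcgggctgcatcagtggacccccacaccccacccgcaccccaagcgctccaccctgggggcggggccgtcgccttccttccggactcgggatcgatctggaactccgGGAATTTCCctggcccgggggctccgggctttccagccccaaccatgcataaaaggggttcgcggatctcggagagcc
CXCL2: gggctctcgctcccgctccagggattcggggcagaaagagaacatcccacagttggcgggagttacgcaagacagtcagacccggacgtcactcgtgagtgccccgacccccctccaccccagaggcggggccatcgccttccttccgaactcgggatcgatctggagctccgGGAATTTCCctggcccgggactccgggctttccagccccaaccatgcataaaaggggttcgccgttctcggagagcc
CXCL8: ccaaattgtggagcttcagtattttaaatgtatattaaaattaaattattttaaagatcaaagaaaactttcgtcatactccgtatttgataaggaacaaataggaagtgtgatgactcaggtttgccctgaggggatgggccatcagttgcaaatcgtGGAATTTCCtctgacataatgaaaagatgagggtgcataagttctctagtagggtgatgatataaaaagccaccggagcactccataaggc
ICAM1: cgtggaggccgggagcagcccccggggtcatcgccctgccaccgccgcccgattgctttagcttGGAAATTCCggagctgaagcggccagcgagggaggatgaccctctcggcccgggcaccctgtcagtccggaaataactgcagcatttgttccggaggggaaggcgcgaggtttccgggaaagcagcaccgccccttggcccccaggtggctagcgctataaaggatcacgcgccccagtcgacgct
CXCL1, CXCL2 and CXCL8 hold the same 9 bases, at 78 to 70, 77 to 69 and 91 to 83 bases before the start, and ICAM1 differs from them within the run, at 186 to 178 bases before the start. For the interferon-stimulated genes the form searched, on both strands, was GAAA, any 2 bases and GAAA again. It was present in 3.07% of all promoters in the table. Of the 10 such genes that rose without and with the order term, 8 matched a promoter and 4 held the form. Among all 30 such genes tested, risen or not, 22 matched and 59.1% of these held it. IFIT3 (chr10:89327747-89327996, plus strand) is shown with its 2 matches in capitals, both on the minus strand.
IFIT3: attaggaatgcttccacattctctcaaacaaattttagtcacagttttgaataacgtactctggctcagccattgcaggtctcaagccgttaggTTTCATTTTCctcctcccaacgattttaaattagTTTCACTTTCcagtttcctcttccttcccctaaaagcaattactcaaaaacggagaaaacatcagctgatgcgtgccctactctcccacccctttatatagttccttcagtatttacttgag

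Library totals, in units of 1000000 counts, were 19.9 to 25.1 at the high dose and 29.8 to 38.5 in vehicle, and 19.5 to 41.9 over the series. The mitochondrially encoded share of counts was 10.4% to 12.5% at the high dose and 12.8% to 13.5% in vehicle. The 60 libraries were divided by the sign of the first principal component of their log2 levels (11.6% of the variance). This gave 31 libraries that all stand before the other 29 in the numbering, called earlier and later here. The division thus comes from the expression values themselves and not from a label. All Okbyeongpung-san libraries are later while all vehicle libraries are earlier. Extract and part of the numbering cannot be told apart in this comparison alone. The comparison was therefore fitted without and with an order term, a term for the part of the numbering that only the Guibi-tang and Saengmaek-san libraries inform, since these formulas have libraries in both parts. Where a named gene was called only without the term, this is said beside it. What the 2 parts of the numbering correspond to is not given in the labels. All 17 markers of HT29 colonic epithelium were detected, EPCAM at 489 to 524 CPM (counts per 1000000 counts) at the high dose and 465 to 500.2 CPM in vehicle. In edgeR's test 3 of the 17 were lower at the high dose and 0 higher, against 3.03% and 4.36% of all genes tested. Of the 3, LGALS4 passed with the order term too, and CDH1 (adjusted p = 0.14 with the term) and CDH17 (adjusted p = 0.0968 with the term) did not. The summed level of the 17 was higher, at 13783 to 14029 CPM at the high dose and 12089 to 12751 CPM in vehicle. KRT8, the marker with the highest level, was at 6599 to 6708 CPM at the high dose and 5598 to 6100 CPM in vehicle. Of the defining markers of other cells, CD163, COL3A1 and ALB had no counts in any of the 6 libraries and PTPRC stayed at or below 0.0672 CPM. Summed levels were 9.77 to 13 CPM at the high dose and 10.9 to 11.8 CPM in vehicle for 11 macrophage markers, 3.16 to 3.62 CPM at the high dose and 4.14 to 4.84 CPM in vehicle for 12 fibroblast markers, and 40.6 to 44.1 CPM at the high dose and 47 to 49.9 CPM in vehicle for 10 endothelial markers. Within these lists ITGAM was higher (2.11 to 2.68 CPM at the high dose, 1.58 to 1.77 CPM in vehicle, adjusted p = 0.0362) and ESAM lower (38.4 to 41.7 CPM at the high dose, 44.6 to 47.2 CPM in vehicle, adjusted p = 0.0188), neither of them with the order term. SERPINA1, on the hepatocyte list, was at 309.7 to 349 CPM at the high dose and 308 to 322 CPM in vehicle.

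At the high dose, chemokine, antimicrobial and NF-kB feedback genes rose, interferon-stimulated and glutathione genes rose by less, and a smaller set that included EGR1 and FOS fell. Without the order term, 744 genes were higher and 517 lower than in vehicle at an adjusted p under 0.05 (edgeR quasi-likelihood test, Benjamini-Hochberg over 17049 genes), which is 7.4% of all genes tested, 4.36% higher and 3.03% lower. With the order term 222 genes were higher (1.3%) and 179 lower (1.05%). Of the 1261 genes called without the term, 620 also differed in the same direction between the later and the earlier libraries. For comparison, among all 17049 genes tested this difference between the parts of the numbering was upward for 2719 and downward for 2334. Both fits called 138 genes higher (0.809%) and 89 lower (0.522%). These shares over all genes are the background for the list counts given below. The median log2 change over all genes was 0.00. On leaving out 1 library the total of 1261 fell to 610, 642 and 801 without high-dose replicates 1, 2 and 3, and to 431 and 601 without vehicle replicates 1 and 3.

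**Figure D1:**
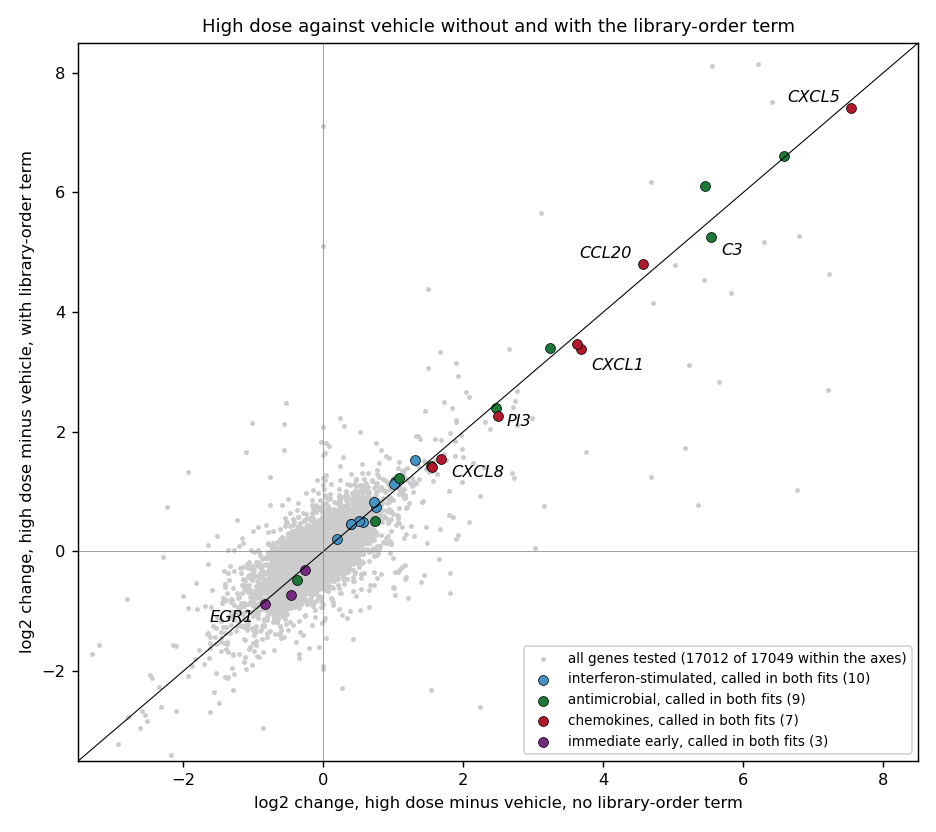
Log2 change of each gene, high dose minus vehicle, without the library-order term (horizontal axis) and with it (vertical axis), with the diagonal in black and the genes of 4 lists that passed both fits in colour. The 7 chemokines and 8 risen antimicrobial genes lie above 0 on both axes, CXCL1 at 3.67 without and 3.38 with the term. CXCL5 has no count in vehicle, so its fitted position depends on the prior count.

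Chemokines that attract neutrophils were among the largest rises. In these bulk libraries a rise in all cells and a rise in some of them cannot be told apart. Of the 14 genes on the NF-kB chemokine list 13 were tested and 7 rose, the same number with the order term, against 4.36% of all genes that rose. The median log2 change of the 13 was 1.55 without and 1.54 with the term, and 0.00 over all genes in both fits. The first of these medians was the same with the gene that has no vehicle count set at its lower bound.

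CXCL1 (chr4:73869393-73871242, GRCh38), a ligand of the neutrophil receptor CXCR2, had 28.7, 26.2 and 24.5 CPM at the high dose, against 2.22, 2.2 and 1.8 CPM in vehicle. Every high-dose library was more than 10 CPM above every vehicle library. The log2 change was 3.67 ± 0.14 (SE, adjusted p = 1.91e-25), and 3.38 with the order term (adjusted p = 3.26e-26). CXCL8 (chr4:73740506-73743716), interleukin-8, had 25.5, 23.8 and 26.5 CPM at the high dose, against 8.0, 7.96 and 7.65 CPM in vehicle. The CXCL8 coordinates are from GENCODE 29 and begin inside the window printed above, whose distances count from the RefSeq start. Its log2 change was 1.68 ± 0.10 (SE, adjusted p = 3.27e-19), and 1.54 with the order term. The CXCL8 values of the groups did not overlap, and the gene had a higher level in vehicle than CXCL1 had.

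CCL20, which attracts CCR6-bearing lymphocytes and dendritic cells, had 3.32, 3.62 and 3.21 CPM at the high dose, against 0.202, 0.105 and 0.122 CPM in vehicle, where it rested on 6, 4 and 4 counts. Its log2 change was 4.56 ± 0.31 (SE, adjusted p = 6.33e-16). The remaining CXC chemokines that rose were lowly expressed. CXCL3 had 3.87, 5.53 and 4.11 CPM at the high dose, against 1.14, 0.524 and 0.795 CPM in vehicle (log2 change 2.49, adjusted p = 6.59e-15). CXCL2 had 2.0, 2.2 and 1.91 CPM at the high dose, against 0.605, 0.838 and 0.612 CPM in vehicle (log2 change 1.55, adjusted p = 2.41e-06). CXCL6 had 2.51, 2.44 and 2.91 CPM at the high dose, against 0.202, 0.288 and 0.122 CPM in vehicle (log2 change 3.62, adjusted p = 1.02e-11). All 3 lay apart between the groups. CXCL5 had 21, 16 and 15 counts at the high dose and no count in any vehicle library, so that it was at least 25.6-fold higher when the vehicle group is set at a floor of 3 counts. CXCL1, CXCL2 and CXCL3 are near-identical relatives, and expected counts divide reads that match several of them, so the split of the rise among them is uncertain.

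The interferon-inducible chemokine CXCL10 had 0.298, 0.244 and 0.451 CPM at the high dose, against 0.134, 0.209 and 0.0306 CPM in vehicle, and did not pass the test (adjusted p = 0.103). CXCL16 had 11.3, 11.1 and 10.4 CPM at the high dose, against 10.7, 10.7 and 10.3 CPM in vehicle (adjusted p = 0.746). CXCL11, CCL28, CX3CL1 and CCL5 did not pass either.

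**Figure D2:**
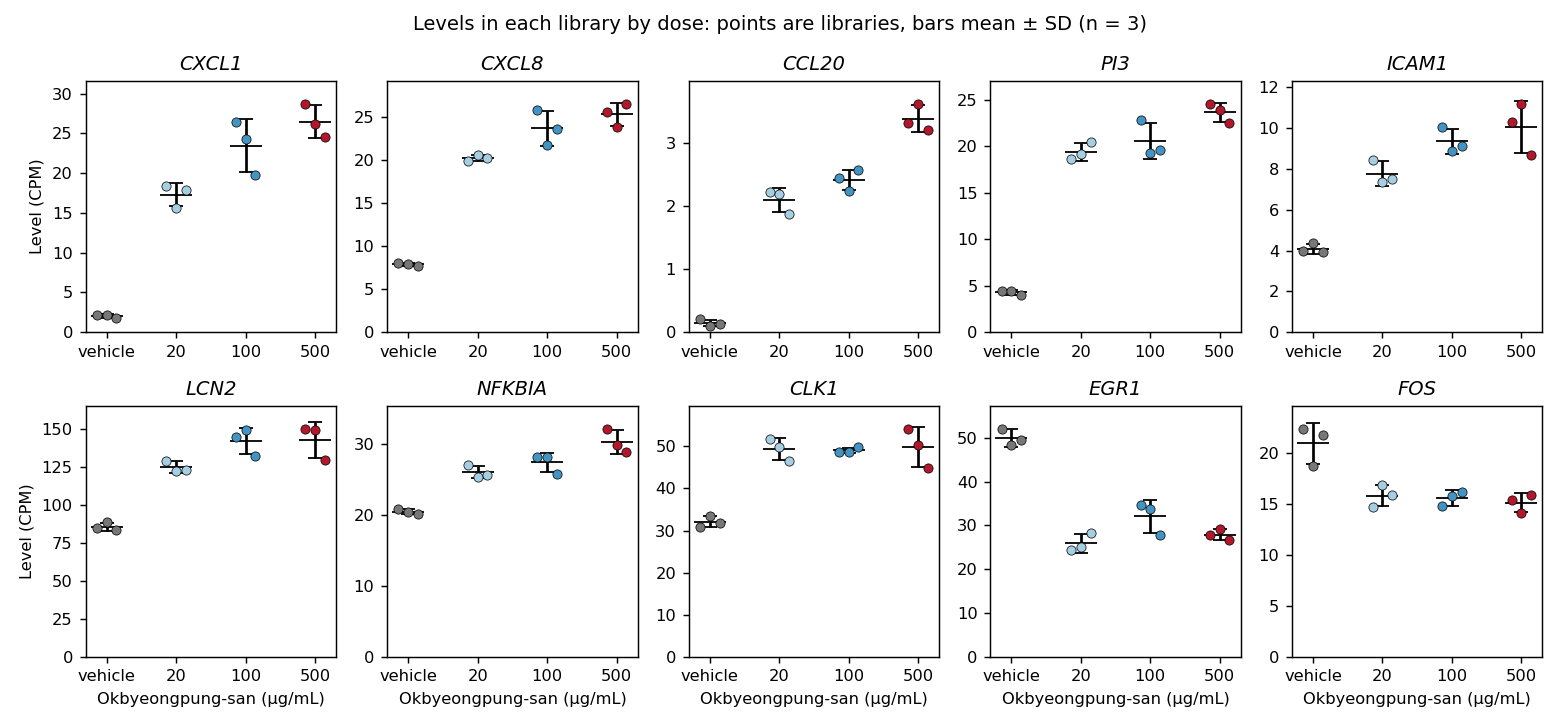
Level (CPM) of 10 genes in each library by Okbyeongpung-san dose (µg/mL), with vehicle at the low end; points are libraries and bars the mean ± SD of 3. At 500 µg/mL CXCL1 lies between 24.5 and 28.7 CPM and EGR1 between 26.6 and 29.1 CPM, on opposite sides of their vehicle libraries.

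Secreted and mucosal defence genes rose with the chemokines. Of 13 antimicrobial genes tested on a list of 23, 8 rose and 1 (REG4) fell, with the same counts under the order term. The median log2 change was 1.27, also with the 2 genes without vehicle counts set at their lower bounds. PI3, the elastase inhibitor elafin, had 24.5, 23.8 and 22.5 CPM at the high dose, against 4.4, 4.4 and 4.01 CPM in vehicle (log2 change 2.47 ± 0.09 SE, adjusted p = 1.19e-26). LCN2, the siderophore-binding lipocalin, had 150.1, 149 and 129 CPM at the high dose, against 84.9, 88.6 and 83.1 CPM in vehicle (log2 change 0.74 ± 0.09 SE, adjusted p = 3.45e-07). LCN2 was also higher in the later libraries in general, by 0.23 on the log2 scale, and its change with the order term was 0.51. Both genes lay apart between the groups in all 6 libraries.

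PIGR, the receptor that carries IgA across the epithelium, had 2.21, 4.11 and 3.01 CPM at the high dose, against 0.269, 0.419 and 0.275 CPM in vehicle (log2 change 3.24 ± 0.25 SE, adjusted p = 2.17e-14). The complement gene C3 rested on 67, 64 and 40 counts at the high dose, against 3, 0 and 2 counts in vehicle. CFB, complement factor B, had 3.7, 4.27 and 3.31 CPM at the high dose, against 1.68, 1.1 and 1.16 CPM in vehicle (log2 change 1.54 ± 0.16 SE, adjusted p = 3.40e-10). The serum amyloid genes SAA1 and SAA2, which share reads, had no count in vehicle. SAA1 had 7, 14 and 6 counts and SAA2 3, 3 and 6 counts at the high dose, at least 13.3-fold and 5.92-fold higher than a vehicle floor of 3 counts over the group. REG4, a lectin of secretory cells, went the other way, with 16.8, 19.5 and 17.9 CPM at the high dose, against 23.9, 23.4 and 23.4 CPM in vehicle (log2 change -0.38 ± 0.07 SE, adjusted p = 0.000251).

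Genes of the NF-kB pathway itself had a median log2 change of 0.19. Of 21 subunit and feedback genes tested, 9 were higher and 1 lower, while 6 were higher and 1 lower in the fit with the order term. The gene lower in the first fit was NFKBIZ and in the second IER3, and neither passed both. NFKBIA, the inhibitor that NF-kB induces, had 32.2, 29.97 and 28.9 CPM at the high dose, against 20.9, 20.5 and 20.1 CPM in vehicle (log2 change 0.57 ± 0.06 SE, adjusted p = 4.63e-09). BIRC3, an apoptosis inhibitor and ubiquitin ligase, had 9.83, 8.5 and 8.88 CPM at the high dose, against 3.56, 4.92 and 4.1 CPM in vehicle (log2 change 1.1 ± 0.13 SE, adjusted p = 1.18e-08). ZC3H12A, a nuclease that degrades inflammatory mRNAs, had 30.8, 29.4 and 27.3 CPM at the high dose, against 17, 17.6 and 18 CPM in vehicle (log2 change 0.73 ± 0.06 SE, adjusted p = 1.03e-12). All 3 kept their call with the order term. The deubiquitinase gene TNFAIP3 rose by 0.93 on the log2 scale (adjusted p = 6.73e-05), RELB by 0.36 (adjusted p = 0.00262) and NFKB2 by 0.41 (adjusted p = 0.00065), and NFKB2 was not called with the order term. NFKBIZ, a nuclear co-regulator, fell, with 51.6, 54.5 and 48.2 CPM at the high dose, against 64.1, 65.3 and 62.7 CPM in vehicle (log2 change -0.31 ± 0.06 SE, adjusted p = 0.000449), and was not called with the order term (adjusted p = 0.105).

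Of 11 inflammatory effector genes tested on a list of 20, 6 were higher and 1 lower, and the order term left 5 higher. ICAM1, the adhesion molecule bound by leukocyte integrins, had 10.3, 11.2 and 8.68 CPM at the high dose, against 3.97, 4.37 and 3.91 CPM in vehicle (log2 change 1.3 ± 0.11 SE, adjusted p = 1.71e-12). CSF1, the macrophage growth factor, had 1.66, 1.99 and 1.4 CPM at the high dose, against 0.504, 0.602 and 0.581 CPM in vehicle (log2 change 1.58 ± 0.22 SE, adjusted p = 1.55e-06). VNN1, a pantetheinase, rose by 0.55 on the log2 scale (adjusted p = 1.07e-05) and the cytokine gene IL32 by 1.24 (adjusted p = 0.000253), at under 2 CPM in every library. TNF, IL1A, IL1B and IL6 did not pass the filter on low counts. Among 21 Toll-like receptor and adaptor genes 1 rose, TLR3, by 0.54 on the log2 scale (adjusted p = 0.0461), a share near the 4.36% of all genes. Its call was lost without high-dose replicate 1 or 2 and without vehicle replicate 1 or 2. It was also lost with DESeq2 size factors, in the 2 groups alone, and with the order term without the Guibi-tang libraries (adjusted p from 0.0503 to 0.259 over these edgeR fits). TLR4 had 16.3, 16.3 and 17.7 CPM at the high dose, against 15.6, 16.3 and 15.9 CPM in vehicle (adjusted p = 0.62).

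**Figure D3:**
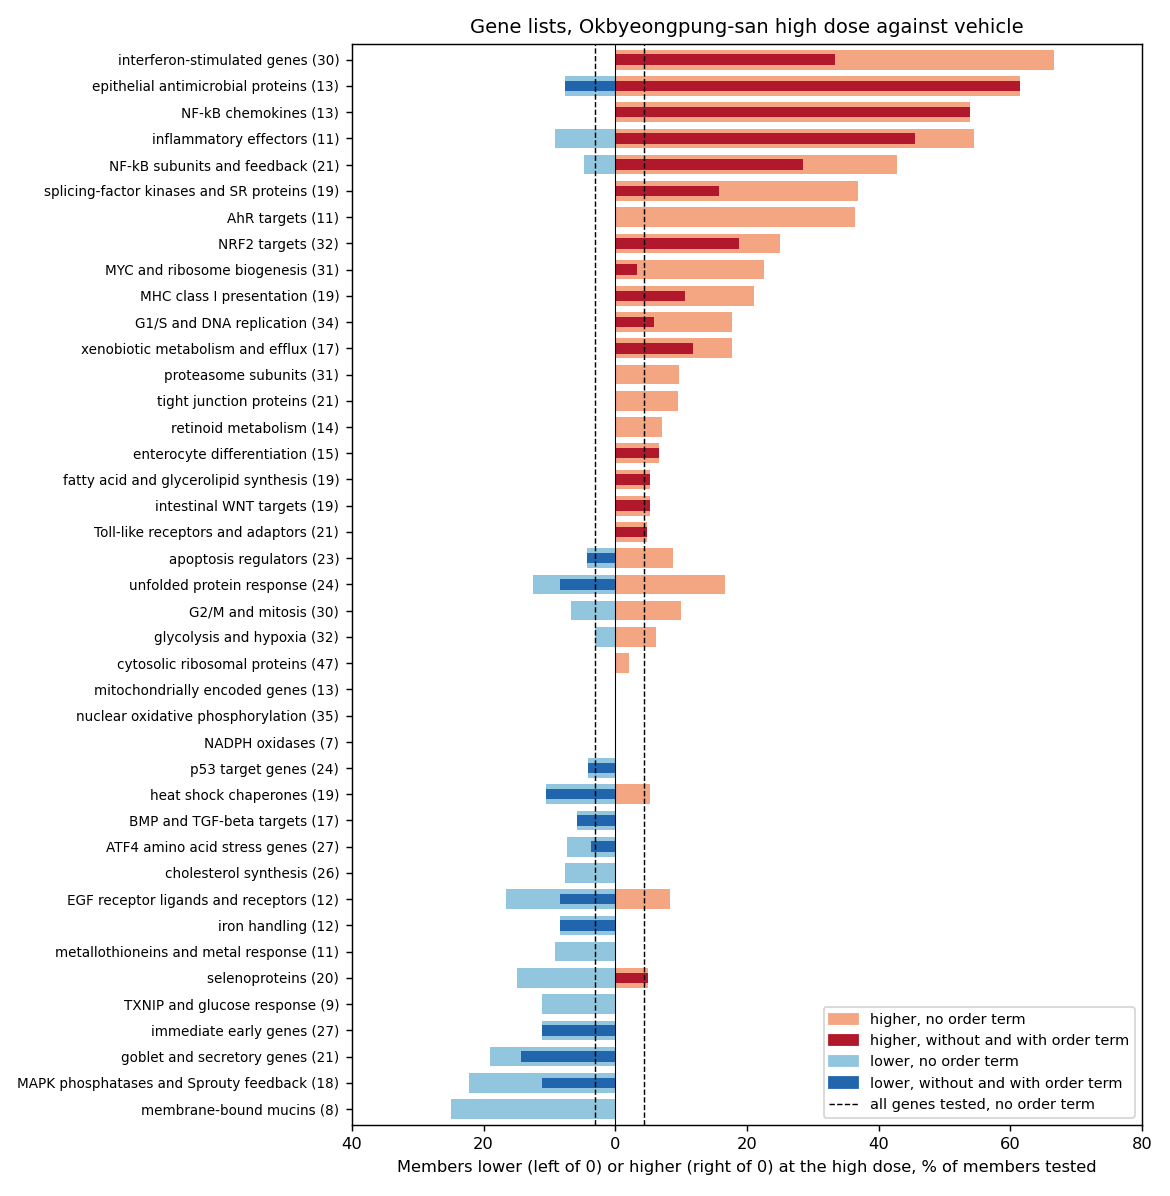
Share of each gene list's tested members (number in brackets) that were lower or higher at the high dose than in vehicle, without the order term (pale) and in both fits (dark), with the shares over all genes tested as dashed lines at 3.03% and 4.36%. The interferon-stimulated, antimicrobial, chemokine and inflammatory effector lists lie farthest to the right, and the AhR target list has pale bars only.

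Interferon-stimulated genes rose in number but by small amounts, and their number rested largely on 1 high-dose library. Of 30 tested, 20 rose and 0 fell without the order term, 11 rose with it, and 10 passed both fits. The median log2 change was 0.45. In 25 of the 30, high-dose replicate 2 was the highest of the 3 high-dose libraries, and the summed level of the list was 465, 575 and 468 CPM at the high dose, against 416, 399 and 398 CPM in vehicle. Without high-dose replicate 2 the count of risen genes was 5, without either other high-dose library it was 17, and without 1 vehicle library it was 12 to 14. In 22 of the 30 genes all 3 high-dose libraries were above all 3 vehicle libraries, as they were in 16.2% of all genes tested.

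MX1, a dynamin-like antiviral GTPase, had 5.19, 11.2 and 4.81 CPM at the high dose, against 3.66, 3.46 and 3.43 CPM in vehicle (log2 change 1.02 ± 0.20 SE, adjusted p = 0.00128). Without high-dose replicate 2 its change was 0.51 and the adjusted p was 0.101. IRF9, the DNA-binding subunit of the interferon-activated complex ISGF3, had 9.87, 14.7 and 8.83 CPM at the high dose, against 7.76, 7.2 and 5.35 CPM in vehicle (log2 change 0.73 ± 0.15 SE, adjusted p = 0.00163), and 0.46 with an adjusted p of 0.0701 without that library. IFIH1, the cytosolic RNA sensor MDA5, was even across the libraries, with 9.95, 10.9 and 9.93 CPM at the high dose, against 6.55, 6.99 and 7.25 CPM in vehicle (log2 change 0.57 ± 0.09 SE, adjusted p = 2.02e-05). IFIH1 kept its call without replicate 2 (log2 change 0.51, adjusted p = 0.00111), as did IFIT3 (0.37, adjusted p = 0.0253), IFI44 (0.58, adjusted p = 0.0276) and OAS3 (0.24, adjusted p = 0.0239). IFIT3, whose promoter window is printed above, had 8.13, 10.7 and 8.58 CPM at the high dose, against 6.15, 6.7 and 6.42 CPM in vehicle.

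**Figure D4:**
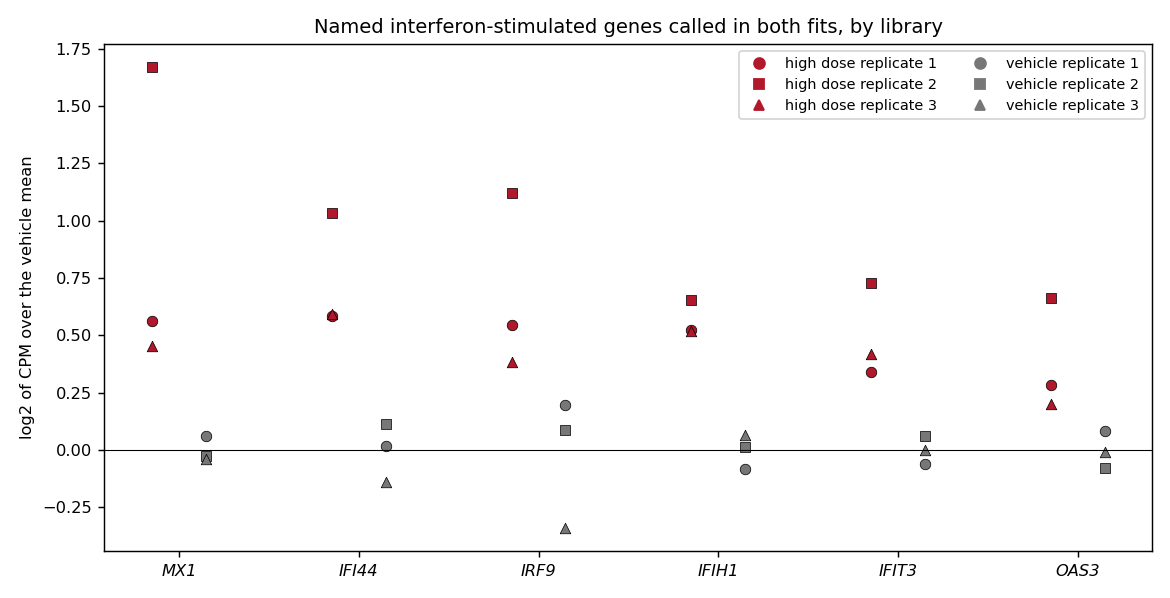
Log2 of the level in each library over the vehicle mean, for the 6 named interferon-stimulated genes, all called in both fits, with high-dose libraries (red) left of vehicle libraries (grey) and the replicate number by marker. Replicate 2 (squares) is the highest high-dose library in all 6, and the high-dose values of IFIH1 lie closest together.

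Antigen presentation genes moved slightly. Of 19 tested on the MHC class I list 4 rose, against 4.36% of all genes. The number was the same with the order term, and 2 passed both fits. Without high-dose replicate 1 or 2 the count was 1. ERAP2, a peptide-trimming protease of the endoplasmic reticulum, rose by 0.27 on the log2 scale (adjusted p = 0.000955) and the peptide transporter gene TAP2 by 0.22 (adjusted p = 0.0157).

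Some NRF2 target genes rose by small amounts, among them genes of glutathione synthesis and thioredoxin reduction. Of 32 tested, 8 rose and 0 fell, against 4.36% and 3.03% of all genes. With the order term 9 rose, and 6 passed both fits. The median log2 change without the term was 0.17. Without high-dose replicate 3 the 8 became 4, and without vehicle replicate 1 they became 5. GCLC, the catalytic subunit of the rate-limiting enzyme of glutathione synthesis, had 105, 102 and 98.6 CPM at the high dose, against 73.9, 78.5 and 78.7 CPM in vehicle (log2 change 0.40 ± 0.06 SE, adjusted p = 2.93e-06). TXNRD1, thioredoxin reductase, had 370.0, 367 and 408 CPM at the high dose, against 327, 317 and 321 CPM in vehicle (log2 change 0.25 ± 0.05 SE, adjusted p = 0.00237). GCLM, the modifier subunit, had 66.7, 63.2 and 75.6 CPM at the high dose, against 46.3, 54.9 and 60.7 CPM in vehicle (log2 change 0.34 ± 0.08 SE, adjusted p = 0.00461). All 3 genes lay apart between the groups. AKR1C1 rose by 0.35 (adjusted p = 0.00518), with the division of reads between it and AKR1C2 uncertain.

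Other NRF2 target genes did not pass the test. HMOX1, heme oxygenase 1, had 11, 11.7 and 9.13 CPM at the high dose, against 11, 10.4 and 9.79 CPM in vehicle (log2 change 0.04, adjusted p = 0.88). NQO1, a quinone reductase, had 463, 465 and 533 CPM at the high dose, against 469, 453 and 472 CPM in vehicle (log2 change 0.07, adjusted p = 0.446). SLC7A11, the cystine importer, had 164, 152 and 169 CPM at the high dose, against 97.2, 132 and 139 CPM in vehicle (log2 change 0.39, adjusted p = 0.0678), and was called with the order term at 0.66 (adjusted p = 0.00404).

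Among targets of the aryl hydrocarbon receptor (AhR), a sensor of plant and environmental ligands, 4 of 11 tested rose without the order term and 0 with it in edgeR's test. Leaving out any 1 library brought the 4 to between 1 and 3. CYP1B1 had 59.7, 55.3 and 53 CPM at the high dose, against 45.2, 44.6 and 45 CPM in vehicle (log2 change 0.32 ± 0.08 SE, adjusted p = 0.00699; adjusted p = 0.214 with the order term). CYP1A1 had 0.808, 1.42 and 1.05 CPM at the high dose, against 0.336, 0.576 and 0.55 CPM in vehicle, and its adjusted p was 0.0201 without and 0.19 with the term.

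Some immediate early genes fell. Of 27 immediate early genes tested 3 fell and 0 rose, against 3.03% of all genes that fell, and 6 fell with the order term. EGR1, a zinc finger transcription factor, had 27.9, 29.1 and 26.6 CPM at the high dose, against 52.2, 48.3 and 49.5 CPM in vehicle (log2 change -0.84 ± 0.13 SE, adjusted p = 6.35e-05). FOS, the AP-1 subunit, had 15.4, 14.1 and 15.8 CPM at the high dose, against 22.4, 18.7 and 21.7 CPM in vehicle (log2 change -0.47 ± 0.09 SE, adjusted p = 0.00139), and -0.73 with the order term. KLF6, a Krüppel-like factor, had 107, 111 and 113 CPM at the high dose, against 133, 133 and 134 CPM in vehicle (log2 change -0.27 ± 0.04 SE, adjusted p = 1.42e-06). All 3 genes were lower in every high-dose library than in every vehicle library. MYC had 275, 293 and 287 CPM at the high dose, against 316, 311 and 304 CPM in vehicle (log2 change -0.12, adjusted p = 0.324), and was called with the order term at -0.36 (adjusted p = 2.13e-05).

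Of 18 MAPK phosphatase and Sprouty genes, which restrain that signalling, 4 fell, against 3.03% of all genes, and 0 rose. With the order term 2 fell. The first count was 1 to 3 on leaving out any 1 library. DUSP8, a phosphatase of stress kinases, had 18.3, 15.8 and 14.8 CPM at the high dose, against 22.5, 23.4 and 25.3 CPM in vehicle (log2 change -0.54 ± 0.09 SE, adjusted p = 6.73e-05). DUSP6, the ERK phosphatase, had 55.3, 59 and 56.3 CPM at the high dose, against 69.7, 67.2 and 62.5 CPM in vehicle (log2 change -0.22 ± 0.06 SE, adjusted p = 0.0226). ERRFI1, an inhibitor of the EGF receptor, fell by 0.21 on the log2 scale (adjusted p = 0.000613), and EREG, epiregulin, by 0.29 (adjusted p = 0.00466; adjusted p = 0.0998 with the order term). The co-chaperone gene DNAJB1 had 76.2, 79.5 and 77.6 CPM at the high dose, against 106, 104 and 103 CPM in vehicle (log2 change -0.42 ± 0.04 SE, adjusted p = 1.65e-10), and was 1 of 2 heat shock chaperone genes of 19 tested that fell in both fits.

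Some secretory lineage genes fell, though levels below vehicle were common to most extract libraries, as given further on. Of 21 goblet and secretory genes tested 4 fell, against 3.03% of all genes, and 0 rose. The counts were the same with the order term, and 3 genes passed both fits, namely REG4, FOXA3 and AGR2. The count of fallen genes was 2 or 3 on leaving out any 1 library. FOXA3, a forkhead transcription factor, had 7.19, 8.62 and 8.22 CPM at the high dose, against 10.6, 10.3 and 9.54 CPM in vehicle (log2 change -0.34 ± 0.10 SE, adjusted p = 0.036). AGR2, a disulfide isomerase needed for mucin folding, had 168, 171 and 190.1 CPM at the high dose, against 195, 199.5 and 198 CPM in vehicle (log2 change -0.16 ± 0.05 SE, adjusted p = 0.0383). MUC2, the gel-forming mucin, had 21.6, 24.8 and 17.7 CPM at the high dose, against 29, 28.5 and 30.5 CPM in vehicle, and did not pass (log2 change -0.45, adjusted p = 0.066).

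Further genes with large falls in both fits had other roles. SLC14A1, a urea transporter, had 3.23, 3.66 and 3.56 CPM at the high dose, against 5.28, 5.94 and 5.38 CPM in vehicle (log2 change -0.67 ± 0.12 SE, adjusted p = 0.000345). PRR36 had 6.64, 6.1 and 5.22 CPM at the high dose, against 10.5, 9.43 and 10.3 CPM in vehicle (log2 change -0.74 ± 0.14 SE, adjusted p = 0.00065). POLH, the translesion DNA polymerase eta, had 12.7, 14.3 and 13 CPM at the high dose, against 17.4, 17.6 and 18.7 CPM in vehicle (log2 change -0.43 ± 0.07 SE, adjusted p = 7.10e-05). Completing the set of 12 falls chosen by size were PIGZ, GABPB2, CPEB2, SOGA1, IER5L and EXTL3, with log2 changes of -0.57 to -0.42. Among the 12 rises chosen by size, CLIP4 rose by 0.58 on the log2 scale (adjusted p = 0.000436), and by 0.79 with the order term. On the enterocyte differentiation list 1 of 15 tested rose (6.67%, against 4.36% of all genes), CEACAM7, by 1.81 (adjusted p = 1.04e-05). It rested on 24, 33 and 16 counts at the high dose and 13, 9 and 8 counts in vehicle.

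RNA-processing genes rose in part. Of 19 splicing-factor kinase and SR protein genes 7 rose and 0 fell, against 4.36% and 3.03% of all genes. Under the order term 3 rose and 1 fell. The first count was 3 to 5 on leaving out any 1 library. CLK1, a kinase of SR proteins, had 54.2, 50.3 and 44.8 CPM at the high dose, against 30.9, 33.5 and 31.8 CPM in vehicle (log2 change 0.64 ± 0.06 SE, adjusted p = 1.32e-10). CLK4, its relative, had 14.1, 12.9 and 12.4 CPM at the high dose, against 10.1, 9.61 and 9.11 CPM in vehicle (log2 change 0.45 ± 0.08 SE, adjusted p = 0.00011), and SRSF5 rose by 0.35 (adjusted p = 0.00011). These 3 passed both fits.

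Calls among growth genes were fewer with the order term. Over all genes 4.36% rose without the term and 1.3% with it. Of 34 G1/S and replication genes 6 rose without it and 2 with it, MCM2 (log2 change 0.21, adjusted p = 0.000826) and MCM7 (log2 change 0.17, adjusted p = 0.00135), subunits of the replicative helicase. Without high-dose replicate 2 the 6 became 3. Of 31 MYC and ribosome biogenesis genes 7 rose without the term (2 to 5 on leaving out any 1 library), and with it 1 rose (BOP1) and 1 fell (MYC). Of 47 cytosolic ribosomal protein genes 1 rose without the term (2.13%, below the share of all genes) and 2 fell with it. MKI67, the proliferation marker, had 1251, 1189.6 and 1017 CPM at the high dose, against 962, 1132 and 1081 CPM in vehicle (adjusted p = 0.431), and its log2 change was 0.12 without and -0.07 with the term. CDKN1A, which encodes the cell-cycle inhibitor p21, had 12.5, 10.2 and 10.2 CPM at the high dose, against 11.7, 12.7 and 13.1 CPM in vehicle (adjusted p = 0.272). TXNIP, another fixed readout, did not pass either (log2 change -0.10, adjusted p = 0.372). No member of the 35 nuclear and 13 mitochondrially encoded oxidative phosphorylation genes passed edgeR's test in either fit, and the 13 had a median log2 change of -0.18.

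The chemokine genes were already above vehicle at 20 µg/mL, where 7 of the 13 rose. The high dose differed from the low dose in 1 of 17049 genes (0.00587%), CXCL1, with 807 genes at an unadjusted p under 0.05 and 2 genes by DESeq2. Against the same vehicle libraries the low dose gave 808 genes higher (4.74%) and 690 lower (4.05%), the medium dose 370 higher (2.17%) and 269 lower (1.58%), and the high dose 744 and 517. These 3 comparisons share their vehicle libraries.

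CXCL1 had 18.4, 15.6 and 17.8 CPM at the low dose, 26.4, 24.3 and 19.8 CPM at the medium dose and 28.7, 26.2 and 24.5 CPM at the high dose. All high-dose libraries were above all low-dose libraries, and the log2 difference, high minus low, was 0.61 ± 0.11 (SE, adjusted p = 0.0202). That call was lost on leaving out either of high-dose replicates 1 and 2 or any low-dose library, and the difference then lay between 0.55 and 0.66. CXCL8 had 25.5, 23.8 and 26.5 CPM at the high dose, against 19.9, 20.5 and 20.2 CPM at the low dose (log2 difference, high minus low, 0.32, adjusted p = 0.697). CCL20 had 3.32, 3.62 and 3.21 CPM at the high dose, against 2.22, 2.2 and 1.88 CPM at the low dose (log2 difference 0.70, adjusted p = 0.787). In 11 of 13 chemokines and 29 of 32 NRF2 targets the fitted high-dose value was above the low-dose one, against 50.8% of all genes. No member but CXCL1 passed. The leaning was not particular to these lists. It was seen in 13 of 13 mitochondrially encoded, 10 of 11 AhR target, 28 of 34 G1/S and 25 of 30 G2/M genes. Other lists leaned the other way, such as cholesterol synthesis, with 6 of 26 above. EGR1 had 24.3, 25.1 and 28.3 CPM at the low dose, 34.7, 33.8 and 27.8 CPM at the medium dose and 27.9, 29.1 and 26.6 CPM at the high dose, with its highest mean at the medium dose. Of the 30 interferon-stimulated genes 18 were higher than in vehicle at the low dose, 12 at the medium dose and 20 at the high dose.

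The remaining extracts place the main genes against the library numbering. In the 3 later-numbered libraries of Saengmaek-san CXCL1 was at 2.31 to 2.45 CPM, and in its 6 earlier ones at 1.14 to 1.56 CPM. In Guibi-tang it was at 15.4 to 27.3 CPM in 4 earlier-numbered libraries and 15.7 to 31.5 CPM in 5 later ones. CXCL1 was thus high in both parts of the numbering under Guibi-tang and low in both under Saengmaek-san. PI3 followed the same division, with 4.01 to 4.11 CPM in the later Saengmaek-san libraries and 15.1 to 23.5 CPM in the earlier Guibi-tang libraries. Over the 27 libraries of Menthae Herba, Saposhnikoviae Radix and Saengmaek-san, CXCL1 ranged from 1.14 to 2.62 CPM. Saposhnikoviae Radix is also a component of Okbyeongpung-san.

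EGR1 and CLK1 did not divide the extracts in this way. EGR1 was below the lowest vehicle library in 53 of the 54 extract libraries, and its range in the later Saengmaek-san libraries was 39.3 to 40.8 CPM. CLK1 was above the highest vehicle library in all 54, with 40.4 to 53.1 CPM in the 27 libraries of Menthae Herba, Saposhnikoviae Radix and Saengmaek-san. GCLC and TXNRD1 were likewise above in all 54, and POLH, DUSP8, KLF6, DNAJB1 and NFKBIZ were below the lowest vehicle library in all 54. For these genes the 3 vehicle libraries lie at an end of the series, apart from 1 extract library for EGR1. A change in vehicle cannot be told apart there from a change common to all extracts. Other genes named above came close to this, and the list that follows is not complete. IFIH1 was above the highest vehicle library in 51 of the 54, IFIT3 in 49, CLK4 in 52 and MCM2 and MCM7 in 53. REG4 and FOXA3 were below the lowest vehicle library in 51, AGR2 in 50, MUC2 and PRR36 in 53, SLC14A1 in 52 and FOS in 49. AKR1C1 was above in 52, CLIP4 in 51, SRSF5 in 50 and TAP2 and IFI44 in 49. CDH1 was below in 53, PIGZ in 52, SOGA1 in 51, LGALS4 in 50 and MYC in 49, the last 2 also above in 2 libraries each. The same limit holds for all of these. NFKBIA, ZC3H12A and BIRC3 were above in 46, 45 and 37 and below in 4, 2 and 0. Their rise was thus not particular to Okbyeongpung-san either.

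**Figure D5:**
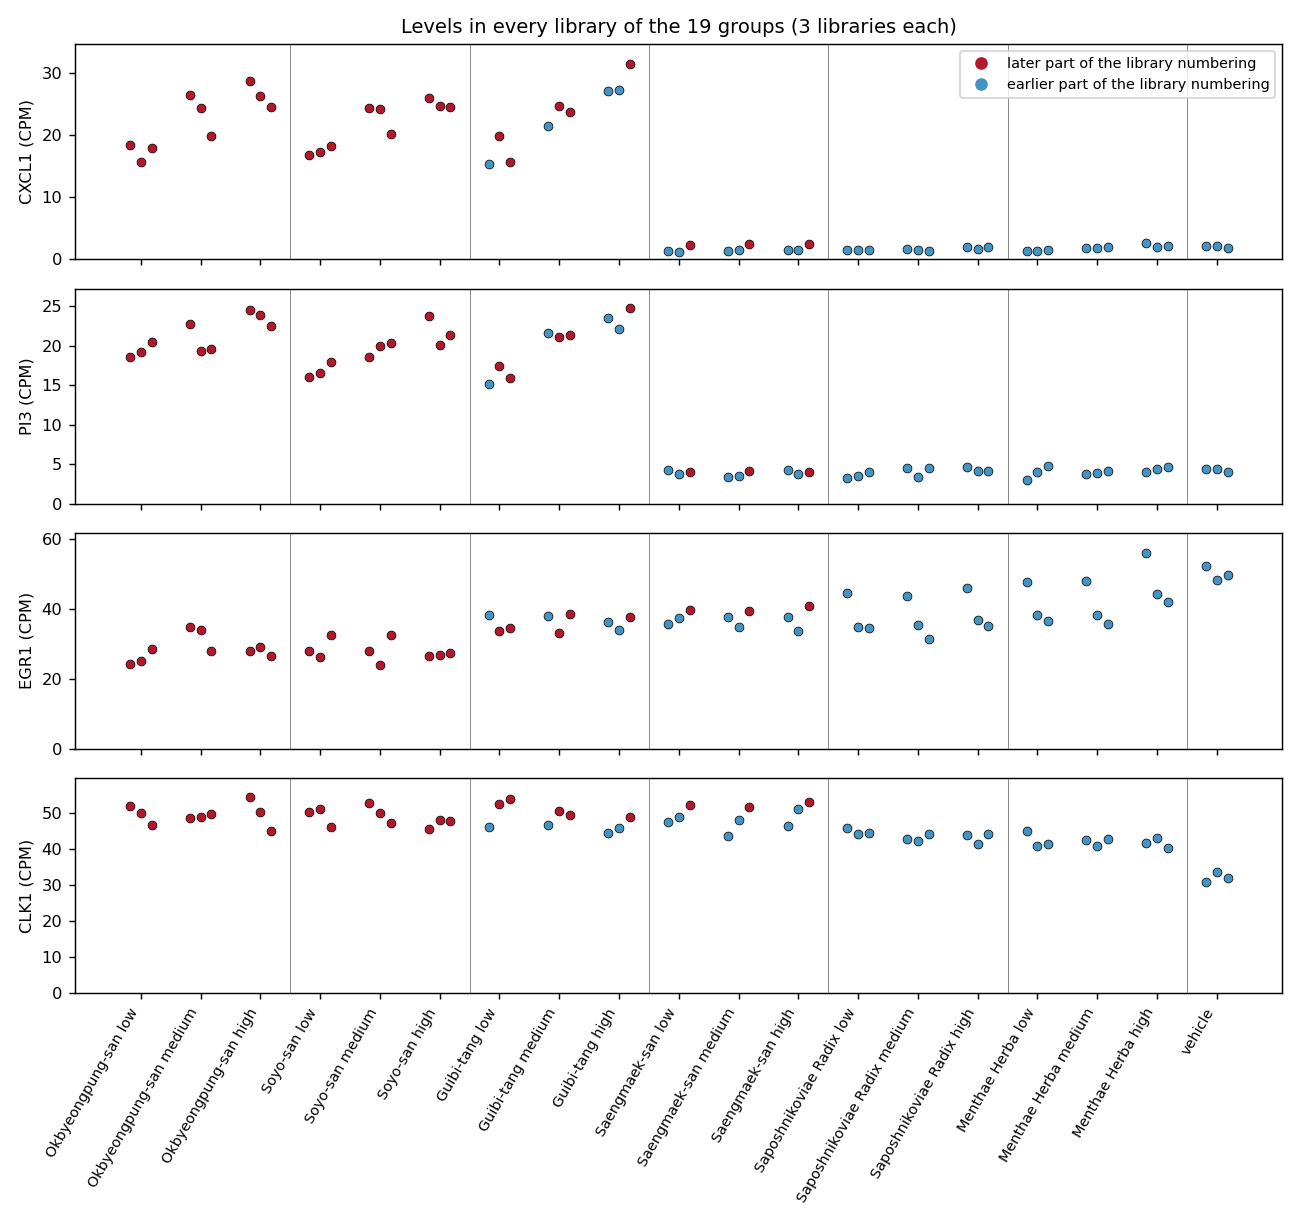
Level (CPM) of CXCL1, PI3, EGR1 and CLK1 in every library of the 6 extracts at 3 doses and of vehicle, coloured by part of the library numbering. CXCL1 and PI3 are high in Okbyeongpung-san, Soyo-san and Guibi-tang, the last in libraries of both parts, whereas CLK1 lies above vehicle in all 54 extract libraries.

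Okbyeongpung-san was also set against the high doses of Soyo-san and Guibi-tang, at the same 500 µg/mL. The chemokines, PI3 and ICAM1 were compared in these 2 pairs of extracts, with p-values adjusted over all genes within each pair. Against Soyo-san, whose libraries are also all later-numbered, 0 of 17049 genes (0%) passed edgeR's test, with 760 at an unadjusted p under 0.05 and 2 by DESeq2. The log2 difference, Okbyeongpung-san minus Soyo-san, had 95% intervals of -0.13 to 0.30 for CXCL1, -0.18 to 0.16 for CXCL8, -0.04 to 0.28 for PI3 and -0.20 to 0.22 for ICAM1.

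Against Guibi-tang 31 genes (0.182%) passed, 6 higher and 25 lower in Okbyeongpung-san, and 15 with the order term. The log2 difference, Okbyeongpung-san minus Guibi-tang, had 95% intervals of -0.31 to 0.10 for CXCL1, -0.32 to 0.02 for CXCL8 and -0.14 to 0.17 for PI3, and none of the 3 passed. SQSTM1, the autophagy receptor p62, had 379.7, 374 and 378 CPM with Okbyeongpung-san, against 455, 500.4 and 488 CPM with Guibi-tang (log2 difference -0.35 ± 0.04 SE, adjusted p = 5.90e-08). DNAJB1 had 76.2, 79.5 and 77.6 CPM with Okbyeongpung-san, against 91.5, 91.7 and 91.8 CPM with Guibi-tang (log2 difference -0.24 ± 0.04 SE, adjusted p = 0.00336). UAP1L1 had 4.08, 4.07 and 3.96 CPM with Okbyeongpung-san, against 6.19, 7.41 and 5.63 CPM with Guibi-tang (log2 difference -0.68 ± 0.10 SE, adjusted p = 5.82e-05). MYH9, nonmuscle myosin heavy chain, had 913, 898 and 865 CPM with Okbyeongpung-san, against 728, 739.6 and 811 CPM with Guibi-tang (log2 difference 0.23 ± 0.04 SE, adjusted p = 0.00336). These 4 genes were called without and with the order term and their groups did not overlap. Fitted on the 2 groups alone, 0 genes passed edgeR's test, while DESeq2 over all libraries called 100, and leaving out 1 library gave counts from 6 (without Guibi-tang replicate 1) to 175 (without high-dose replicate 3).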

How the data were processed

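RNA of HT29 cells was sequenced (MGIEasy directional kit, paired 100 bp reads, per the labels' protocols). The authors deposited expected counts per gene for 60 libraries. The submitters' processing notes name FastQC 0.11.9, Trim Galore 0.6.5, STAR 2.7.3a, RSEM 1.3.3 and GRCh38; the strand setting is not given in the sources used here. Expected counts divide reads shared by similar genes, and 27.7% of nonzero values are not whole numbers, so they were rounded.

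edgeR 4.0.16 (R 4.3.3, limma 3.58.1) was fitted with TMM scaling and robust quasi-likelihood on 57 libraries in 19 groups of 3 (38 residual degrees of freedom), after its filter on low counts left 17049 of 60675 identifiers, and p-values were adjusted by Benjamini-Hochberg with a threshold of 0.05. A second fit added the order term. CPM use TMM-scaled totals. DESeq2 1.42.0, other scalings, no filter, a replicate block and leaving out libraries were alternatives. In counts simulated from the fitted means and spreads, the fit without the order term recovered 98% of 100 genes changed 1.5-fold. It recovered 100% of 100 genes changed 2-fold, with 15 false calls among 213. All other genes were given the same mean at the high dose as in vehicle. The simulation therefore says nothing about the part of the numbering. Replicates differed beyond counting noise (chi-square per degree of freedom 1.89 to 10.4).

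The members and gene lists were chosen with earlier results of these data known. Genes named against vehicle were drawn from 3 sources. The first was the 12 largest changes each way among protein-coding genes called in both fits, at 5 CPM or more and with groups apart. The second was up to 4 members per list with the smallest p, not all of which are named here. The third was fixed readouts, of which TLR2 and SOD2 were not tested. Against Guibi-tang the rule took the 5 largest changes each way, of which only MYH9 and UAP1L1 are named here. SQSTM1 and DNAJB1 fall outside that rule and are among the genes flagged further on. CXCL5, CXCL6, CXCL10, CXCL16, SAA1, SAA2, IER3, RELB and NFKB2 fall outside this rule and were chosen after their values were seen. Same-numbered replicates did not deviate together, so they were not paired.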

Additional observations from a re-analysis of the deposited data

Results flagged for a closer look

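The change from low to high dose differed from 0 for CXCL1 alone, at 0.615 on the log2 scale (edgeR), a call lost on leaving out any 1 of these libraries but high-dose replicate 3.

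Between Okbyeongpung-san and Guibi-tang at the high dose, 9 genes differed by edgeR's test without and with the order term, with groups apart. The log2 difference, Okbyeongpung-san minus Guibi-tang, was 0.138 for ERBB3, 0.232 for MYH9, -0.325 for JAG1, -0.211 for RBM3, -0.237 for DNAJB1, -0.351 for SQSTM1, -0.273 for TMEM39A, -0.685 for UAP1L1 and -0.617 for IGFL2-AS1.

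Soshiho-tang, a formula with 1 library per dose, entered no comparison. Its high-dose library had 19.8 CPM of CXCL1, 24.8 CPM of CXCL8 and 19 CPM of PI3, each above every vehicle library.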

How the results depend on the processing

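Against vehicle, 1261 genes passed edgeR's test. The count was 401 with the order term, 397 with it and DESeq2 size factors, 309 with it without the Guibi-tang libraries, 186 with it without the Saengmaek-san libraries, and 431 to 930 on leaving out 1 library. The naming rules selected 122 called genes, not all of which are named here. Of these, 33 kept their call in every alternative that gave an adjusted p, and 1 changed sign (RPL3, -0.0159 with the order term without Saengmaek-san). High against low dose gave 1 gene, 96 without a filter on low counts, 0 in the later-numbered libraries alone, 2 by DESeq2 and 0 to 1 on leaving out 1 library. Against Guibi-tang 31 genes passed, 387 without a filter, 15 with the order term, 0 in the 2 groups alone, 100 by DESeq2 and 6 to 175 on leaving out 1 library. Against Soyo-san 0 passed, 95 without a filter, 2 in the 2 groups alone, 2 by DESeq2 and 0 to 10 on leaving out 1 library. The cause of these shifts was not tested.

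Genes that did not pass changed sign as follows. On leaving out 1 library HMOX1 ranged from -0.0453 (without high-dose replicate 2) to 0.124 (without high-dose replicate 3), and the fits with the order term gave 0.108 to 0.182. NQO1 ranged from -0.00486 (without high-dose replicate 3) to 0.0967 (without high-dose replicate 1) on leaving out 1 library, and the fits with the order term gave 0.116 to 0.177. With the order term CDKN1A was at 0.0491, at 0.0486 with DESeq2 size factors too, and at 0.122 without Guibi-tang, and MKI67 was at -0.0692, at -0.0698 with DESeq2 size factors too, at -0.133 without Guibi-tang and at -0.0112 without Saengmaek-san. Against Soyo-san, on leaving out 1 library, CXCL8 ranged from -0.0646 without Soyo-san replicate 3 to 0.0328 without Soyo-san replicate 1, and ICAM1 from -0.0752 without high-dose replicate 2 to 0.0993 without high-dose replicate 3.

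Same-numbered samples share only a number, with correlations of their deviations from -0.06 to 0.06. A replicate block gave 1538 genes against vehicle, 1 against the low dose, 63 against Guibi-tang and 0 against Soyo-san. For CXCL5, SAA1 and SAA2, with no count in vehicle, the depth allows only a lower bound of the fold.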
